A study of Mus musculus with 6 samples.

Results

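Interferon response genes were examined for accessible chromatin in mouse haematopoietic stem cells (HSCs) with and without endoplasmic reticulum (ER) stress. The 29 genes were given as a list, of 21887 protein-coding genes in the RefSeq table used, and split by role into 6 sensors and factors and 23 effectors. Their regions were those lying inside or within 20 kb of a gene's span: 150 of the 82993 regions made by merging the peaks of all libraries. All 29 genes had at least 3 such regions and at most 10. No region lay near a gene of each class, and 10 lay near a pair of the 29 genes, namely Oas2 with Oas3, Oasl1 with Oasl2, or Ifit2 with Ifit3, which stand side by side.

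The data are ATAC-seq peak lists, in which a transposase marks open DNA, from about 5000 CD48-CD150+LSK cells per library sorted from bone marrow. All mice were wild-type C57BL/6J and were injected intraperitoneally, 3 libraries coming from mice given DMSO, the solvent, and 3 from mice given tunicamycin at 2 mg per kg. Tunicamycin blocks N-linked glycosylation, so that misfolded protein builds up in the ER. The age and sex of the mice, the time from injection to sorting, and whether each library came from its own animal or from a pool are all unstated in the labels. The spread within a group, and every p-value that rests on it, may therefore be technical.

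Lists held 28501 to 62478 peaks on the autosomes, X and Y, and the longest and the shortest were both DMSO lists (replicates 1 and 3). The lists carry no read depth, and DNA without a call may still be open below the threshold of detection. Of 8 HSC marker genes, 6 had a region called in all 6 libraries in or within 1 kb of the gene, Hlf, Mecom and Procr among them. The exceptions were Slamf1 and Ly6a, which encode the sort markers CD150 and Sca-1. None of 6 neutrophil and monocyte genes had one, Elane and Mpo included, nor did Cd3e, Cd8a and Ms4a1 among the lymphoid genes, whereas Nkg7, of NK and T cells, and Pax5, of B cells, did. Such a region was present at 2 of 4 macrophage genes, 2 of 4 plasmacytoid dendritic cell genes, 2 of 4 erythroid genes, 2 of 6 lymphoid genes and 2 of 4 genes of stroma and endothelium.

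Type I interferon acts through its receptor on a complex that includes STAT2 and IRF9 and binds the interferon-stimulated response element (ISRE). Type II interferon acts mainly at gamma-activated sites (GAS). The induced genes encode antiviral effectors and also more of the sensors and factors, so that the pathway primes itself. In HSCs, interferon is known to drive quiescent cells into cycle, and some interferon-stimulated genes are known to be expressed in stem cells without infection.

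The promoter sequence shows where these factors could bind, and the windows of 6 genes that were open in all 6 libraries are given first. Each window runs from 250 bases before the start to 50 bases from it (RefSeq, GRCm38.p6, the assembly of mm10) and is written 5′ to 3′ on the gene's strand, with letters matching the ISRE pattern, on either strand, in capitals. The pattern searched was GAAA, any 2 bases, GAAA. These are the 6 genes of highest mean percentile among those in which the window that holds the match was itself called in all 6 libraries.
Stat2, chr10:128270248-128270547, plus strand: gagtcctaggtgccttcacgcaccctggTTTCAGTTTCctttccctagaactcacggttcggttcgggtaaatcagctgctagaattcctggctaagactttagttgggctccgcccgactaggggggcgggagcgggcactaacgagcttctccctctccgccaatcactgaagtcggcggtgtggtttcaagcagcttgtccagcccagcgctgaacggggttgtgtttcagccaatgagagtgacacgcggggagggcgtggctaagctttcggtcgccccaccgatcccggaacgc
Trim30a, chr7:104465144-104465443, minus strand: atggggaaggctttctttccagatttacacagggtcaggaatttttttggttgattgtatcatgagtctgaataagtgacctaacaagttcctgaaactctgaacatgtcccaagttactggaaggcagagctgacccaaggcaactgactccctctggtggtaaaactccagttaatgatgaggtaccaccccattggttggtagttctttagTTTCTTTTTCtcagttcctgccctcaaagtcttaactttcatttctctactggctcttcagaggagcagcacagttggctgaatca
Ifih1, chr2:62646206-62646505, minus strand: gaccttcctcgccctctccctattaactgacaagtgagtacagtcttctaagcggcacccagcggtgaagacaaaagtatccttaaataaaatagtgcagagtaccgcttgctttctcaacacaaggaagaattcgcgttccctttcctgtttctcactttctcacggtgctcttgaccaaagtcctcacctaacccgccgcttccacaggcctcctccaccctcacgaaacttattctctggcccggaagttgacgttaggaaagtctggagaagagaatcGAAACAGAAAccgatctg
Bst2, chr8:71537423-71537722, minus strand: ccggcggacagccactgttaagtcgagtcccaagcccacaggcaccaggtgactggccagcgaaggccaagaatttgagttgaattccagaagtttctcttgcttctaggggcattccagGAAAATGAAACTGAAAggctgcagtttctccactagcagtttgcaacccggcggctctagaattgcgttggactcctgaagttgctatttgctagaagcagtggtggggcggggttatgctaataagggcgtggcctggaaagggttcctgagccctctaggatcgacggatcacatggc
Ifit1, chr19:34640639-34640938, plus strand: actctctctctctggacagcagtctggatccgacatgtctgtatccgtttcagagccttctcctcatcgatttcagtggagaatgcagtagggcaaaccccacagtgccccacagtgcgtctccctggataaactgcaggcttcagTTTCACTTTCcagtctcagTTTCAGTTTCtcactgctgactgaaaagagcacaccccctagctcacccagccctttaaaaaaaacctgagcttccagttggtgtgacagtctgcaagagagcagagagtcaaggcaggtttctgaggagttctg
Rsad2, chr12:26456403-26456702, minus strand: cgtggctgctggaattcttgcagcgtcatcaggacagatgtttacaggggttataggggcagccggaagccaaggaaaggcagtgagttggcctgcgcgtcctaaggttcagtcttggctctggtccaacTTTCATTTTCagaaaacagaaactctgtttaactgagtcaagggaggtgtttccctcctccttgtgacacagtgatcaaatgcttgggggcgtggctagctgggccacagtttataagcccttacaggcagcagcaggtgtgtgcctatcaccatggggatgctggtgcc

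The match in Stat2 began 222 bases before the start, that of Trim30a 36 bases before it and that of Rsad2 120 bases before it. Ifit1 held separate matches that began 104 and 85 bases before the start, whereas in Bst2 the pair at 130 and 124 bases overlapped. In Ifih1 the match lay past the start, from base 32 on. A further pair of windows, chosen after their values were seen, belongs to genes with 2 or 3 matches and a call in 1 library only.
Isg15, chr4:156200769-156201068, minus strand: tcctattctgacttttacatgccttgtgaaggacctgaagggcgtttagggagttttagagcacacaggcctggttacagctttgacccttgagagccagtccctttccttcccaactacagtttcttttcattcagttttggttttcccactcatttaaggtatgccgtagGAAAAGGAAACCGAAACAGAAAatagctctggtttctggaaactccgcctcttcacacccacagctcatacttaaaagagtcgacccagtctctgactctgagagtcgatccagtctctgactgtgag
Ifitm3, chr7:141010695-141010994, minus strand: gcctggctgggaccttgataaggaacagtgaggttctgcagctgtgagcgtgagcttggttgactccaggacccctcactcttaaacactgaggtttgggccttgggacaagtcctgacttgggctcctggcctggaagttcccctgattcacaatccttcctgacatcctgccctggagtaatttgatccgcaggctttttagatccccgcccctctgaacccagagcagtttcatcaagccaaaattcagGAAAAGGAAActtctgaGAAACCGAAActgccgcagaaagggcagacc

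In Isg15 the capitals are a run of 3 overlapping matches, beginning 78, 72 and 66 bases before the start. Ifitm3 held 2 matches, both just past the start. A match is a description of letters and does not show a bound site.

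Most of the interferon genes examined held the ISRE pattern at the start, among them genes with and without calls in every library. A start window was in the RefSeq table for 24 of the 29 genes, the others being Oas2, Usp18, Gbp6, Rtp4 and Parp14. Of the 24, 15 held an ISRE match (62.5%), against 3.94% of 17492 protein-coding genes with a window. The 15 were Stat2, Ifih1, Ddx58, Isg15, Ifit1, Ifit3, Oas1a, Oas3, Rsad2, Gbp2, Gbp3, Bst2, Ifitm3, Cxcl10 and Trim30a. The GAS pattern, TTC, any 3 bases, GAA, which reads the same on both strands, was in 6 of 24 (25.0%) against 8.92%: Irf1, Ifit2, Oas1a, Bst2, Ifi35 and Ifitm3. In 2 windows, Bst2 and Ifitm3, a GAS match overlapped an ISRE match. A region over the window with the match was called in all 6 libraries in 8 of the 15 genes, in some libraries in 6 and in none in 1, Gbp3. The 8 include Ddx58, where the DMSO replicate 3 peak lay in the region but outside the window. Of the 9 genes without a match, 7 had a start called in all 6. In Gbp3, which has 2 annotated starts, both ISRE matches lay in the window of the upstream start, which no library called, and the calls came from the downstream window.

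Every library called the merged region over the start of each sensor and factor. All 6 of these genes had such a region called in 6 of 6 libraries, effectors in 10 of 18, and protein-coding genes as a whole in 45.9%. A library counts if any of its peaks is in the region, so the peak itself need not reach the start window. At Ddx58, where the region is 1303 bp wide, the peak of DMSO replicate 3 did not reach it. The 24 genes with a window together reached 16 of 24 (66.7%), and none lacked a call in every library, whereas 40.7% of protein-coding genes did. By library, DMSO replicates 1, 2 and 3 called the starts of 21, 17 and 18 of the 24 genes, and tunicamycin replicates 1, 2 and 3 those of 19, 21 and 20. These counts describe the list and are not a test, since the genes were chosen for what is known of them.

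Strength was described by the percentile of a peak's fold enrichment, the authors' value, within its own list, where 100 is the strongest peak. Lists differed in length, so percentiles are read within a library. Stat2, the activating subunit of the ISRE-binding complex, had the strongest start of the 24 genes, at percentiles 99.3, 99.3 and 98.5 in DMSO replicates 1 to 3 and 99.6, 98.2 and 98.0 in tunicamycin replicates 1 to 3. Irf9, which carries the DNA contact of the complex, stood at 87.5, 87.7 and 95.04 with DMSO and 92.5, 91.1 and 89.5 with tunicamycin. Both genes were thus near the top of every list, and the groups overlapped.

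Ifih1, the MDA5 sensor of long double-stranded RNA, stood at 94.4, 87.4 and 70.0 with DMSO and 86.6, 88.4 and 87.9 with tunicamycin. Irf1, a factor downstream of interferon gamma, was lower, at 75.8, 72.3 and 81.7 with DMSO and 80.2, 80.0 and 75.5 with tunicamycin. The start of Irf7, the factor that amplifies interferon production, was called in each library but was weak, at 33.0, 30.7 and 49.5 with DMSO and 42.5, 39.3 and 21.5 with tunicamycin. Ddx58, the RIG-I sensor of uncapped RNA, spread most in this class, from 37.8, 67.0 and 46.4 with DMSO to 51.4, 71.6 and 25.9 with tunicamycin. The 46.4 belongs to a peak in the region but outside the start window. For these 4 genes the groups overlapped as well.

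**Figure D1:**
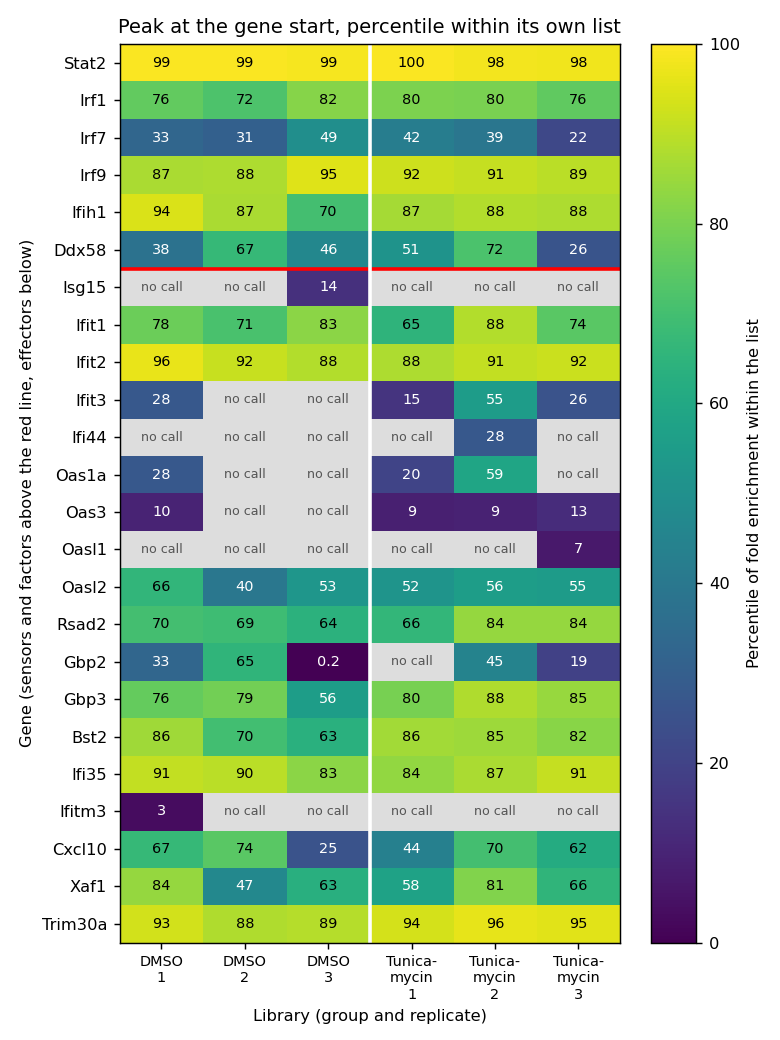
Percentile of fold enrichment within its own list (colour and number, 100 = strongest) of the highest peak in the region at each gene start, for 24 genes (rows) in 6 libraries (columns). Grey cells mark no call. All 6 sensors and factors had this region called in every library, whereas 8 of 18 effectors did not. At Ddx58 the DMSO replicate 3 peak lay in the region but outside the start window.

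By calls, 10 effectors had a region at the start called in all libraries and 8 did not, though the percentiles of these kinds overlapped. Among the 10 of the first kind, Trim30a, a TRIM-family regulator of innate signalling with 2 annotated starts, had values, for the stronger start in each library, of 93.0, 88.3 and 88.9 with DMSO and 93.7, 96.4 and 95.5 with tunicamycin. Ifit2, which binds foreign RNA, stood at 96.5, 91.7 and 88.3 with DMSO and 87.8, 90.7 and 91.9 with tunicamycin. Ifi35 stood at 90.8, 89.7 and 82.8 with DMSO and 83.6, 87.2 and 91.4 with tunicamycin. These 3 were the strongest effector starts in the mean over libraries. For Trim30a the tunicamycin percentiles were all above the DMSO percentiles, in lists of unequal length, while ranked among the regions called in all 6 libraries the groups overlapped at both of its starts. For Ifit2 and Ifi35 the percentiles within lists overlapped.

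Bst2, or tetherin, which holds budding virus at the cell surface, stood at 85.8, 69.7 and 63.5 with DMSO and 86.1, 85.2 and 82.2 with tunicamycin. Gbp3, a guanylate-binding GTPase, stood at 76.4, 78.8 and 55.8 with DMSO and 79.6, 88.0 and 84.7 with tunicamycin. Ifit1, which binds viral RNA that lacks cap methylation, stood at 77.7, 71.2 and 82.5 with DMSO and 65.2, 88.4 and 74.3 with tunicamycin. In Gbp3 the 3 tunicamycin percentiles were all above the 3 DMSO percentiles, in lists of unequal length. In Bst2 and Ifit1 the groups overlapped.

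Rsad2, or viperin, which makes a chain-terminating nucleotide, stood at 70.0, 69.0 and 64.1 with DMSO and 66.3, 84.3 and 84.2 with tunicamycin. Xaf1, a pro-apoptotic binding partner of XIAP, stood at 84.1, 46.7 and 63.2 with DMSO and 57.7, 81.0 and 65.6 with tunicamycin. Cxcl10, a chemokine for activated T cells, stood at 67.0, 74.4 and 25.4 with DMSO and 43.5, 70.0 and 61.6 with tunicamycin. Oasl2, of the oligoadenylate synthetase family, had the weakest mean of the 10, with values of 39.7 to 65.9. In these 4 genes too the groups overlapped.

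The other 8 effector starts were called in 1 to 5 libraries. Gbp2, which helps to disrupt pathogen vacuoles, was called at percentiles 32.8, 65.4 and 0.202 with DMSO and at 44.6 and 19.3 in tunicamycin replicates 2 and 3. Ifit3, a partner of IFIT1, was called in DMSO replicate 1 at 27.6 and in the tunicamycin replicates at 15.0, 55.3 and 25.6. Oas3, a synthetase that activates RNase L, was called in the same 4 libraries, at 9.84 in DMSO replicate 1 and at 8.62, 9.43 and 12.7 with tunicamycin. The starts of both genes were therefore called in 3 of 3 tunicamycin and 1 of 3 DMSO lists, the longest of the DMSO lists being the exception. Oas1a, which also activates RNase L, was called in DMSO replicate 1 at 27.6 and tunicamycin replicates 1 and 2 at 20.5 and 58.8.

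A call in 1 library only was found at 4 starts. Isg15, a ubiquitin-like modifier, was called in DMSO replicate 3 at 14.0 and Ifitm3, which blocks viral entry, in DMSO replicate 1 at 3.15. Ifi44 was called in tunicamycin replicate 2 at 27.6 and Oasl1 in tunicamycin replicate 3 at 6.76. These peaks stood low in their own lists. A region called in all 6 libraries lay 0.482 kb outside Oasl1 on the upstream side, over the start of Gm13822. Its percentiles were 80.1, 69.1 and 62.0 with DMSO and 75.8, 83.6 and 67.6 with tunicamycin. Another lay 0.241 kb outside Ifitm3, beyond its end, at 46.8, 20.0 and 72.2 with DMSO and 65.5, 48.9 and 50.5 with tunicamycin. Isg15 and Ifi44 had no region called in all 6 libraries within 20 kb. With all lists limited to the 28501 peaks of lowest q-value, the starts of Ifit3, Ifi44, Oas1a, Oasl1 and Ifitm3 had no call in any library, while 15 starts were called in all 6. The 15 included every sensor and factor other than Ddx58, which was called in DMSO replicate 2 alone. The DMSO replicate 3 list is unchanged by this limit. Its Ddx58 call was lost because its peak, outside the start window, was no longer merged into a region over the start. Mouse Ifit, Oas and Gbp genes have near-identical copies, and the handling of reads that map to several places is not given, so missing calls there are uncertain.

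Around the genes, calls in every library made up a larger share of the regions near sensors and factors than of those near effectors. Of the 150 regions, 48 (32.0%, exact 95% interval 24.6 to 40.1) were called in all 6 libraries, against 25.1% of all regions. Sensors and factors had 16 of 33 (48.5%, interval 30.8 to 66.5) and effectors 32 of 117 (27.4%, interval 19.5 to 36.4). The intervals cover counting error only, treat regions as independent and overlap. Regions called in 1 library made up 4 of 33 near sensors and factors and 34 of 117 near effectors, against 32.4% of all regions. Within 5 kb in place of 20 kb the difference between the classes was 11.9 percentage points, down from 21.1.

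**Figure D2:**
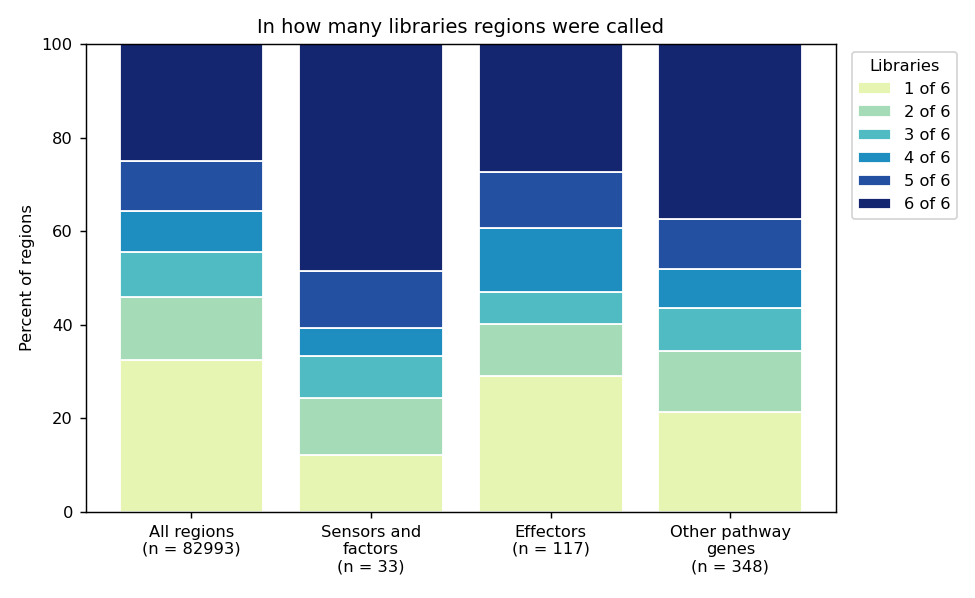
Percent of regions (vertical axis) called in 1 to 6 of the 6 libraries (colours), for all regions, regions near sensors and factors, near effectors and near 54 other pathway genes. The share called in all 6 was 48.5% for sensors and factors and 27.4% for effectors, against 25.1% of all regions.

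Regions over gene starts were more often called in all 6 libraries than other regions. Of the 150 regions, 25 lay over the start of a listed gene, and 17 of these were called in all 6 libraries. Another 25 lay over the start of a neighbouring gene, 12 of them called in all 6, and the neighbours included Psme2, Rnf31, Pan2, Rpl27 and Cmpk2. The remaining 34 regions overlapping and 66 outside the genes had 7 and 12 called in all 6. Over the whole genome, 70.3% of regions at a start and 18.0% of the others were called in all 6. Among sensors and factors the numbers were 11 of 13 at any start (6 of 6 at their own) and 5 of 20 elsewhere. Among effectors they were 18 of 37 (11 of 19 at their own) and 14 of 80. Effectors without a start window in the table (Oas2, Usp18, Gbp6, Rtp4 and Parp14) could add no region at their own start to the first count. An Oas2 region over the start of Dtx1 is in the first count. Regions over an end of the gene at Usp18, Parp14 and Oas2 are in the second.

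Gene by gene, 22 of 29 had at least 1 region called in all 6 libraries, all 6 sensors and factors among them. The 7 without were Isg15, Ifi44, Oas1a, Oas2, Gbp2, Gbp6 and Parp14. No matching share over all protein-coding genes is given, so the count only describes the list. Irf1, Irf9 and Bst2 had 4 each. At Irf1, the regions beside the start lay 5.77 kb outside the gene on the upstream side (chr11:53762992-53764247, mm10) and 7.94 and 16.4 kb outside it on the other. No protein-coding neighbour was within 20 kb of Irf1. At Irf9, by contrast, the other 3 regions lay over starts of neighbours, Emc9, Psme2 with Rnf31, and Rec8. At Ifi44, 6 of 8 regions were called in 1 library only.

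**Figure D3:**
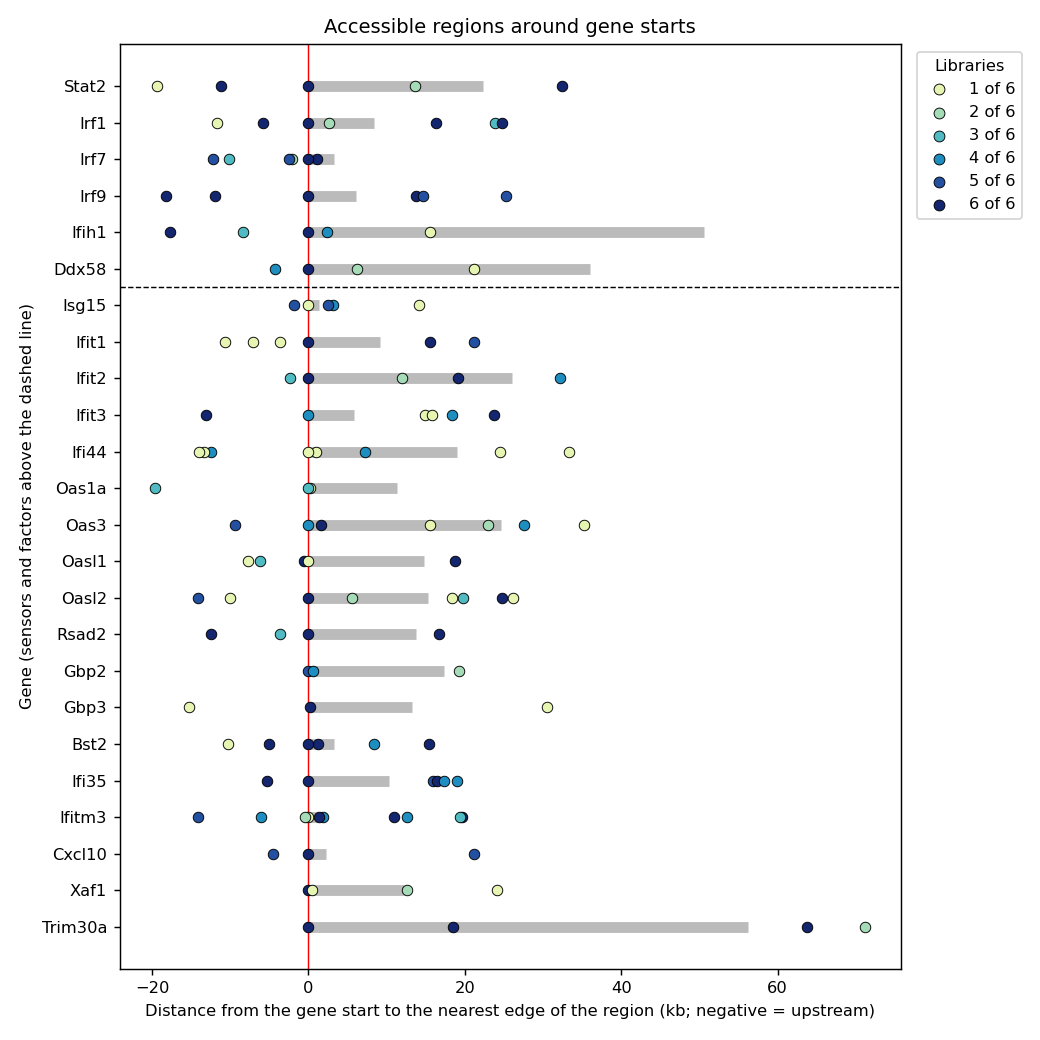
Regions (points) around the starts of 24 genes, by distance in kb from the gene start to the nearest edge of the region (0 where it covers the start) and coloured by the number of libraries that called them; grey bars are gene spans. The 6 sensors and factors each have a region called in all 6 libraries at 0, as 10 effectors do at or within 0.144 kb of it.

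By library, calls near interferon genes followed the length of the list. DMSO replicates 1, 2 and 3 called 119, 72 and 61 of the 150 regions (79.3%, 48.0% and 40.7%), and tunicamycin replicates 1, 2 and 3 called 91, 116 and 96 (60.7%, 77.3% and 64.0%). The same libraries called 73.6%, 44.6%, 33.3%, 52.6%, 67.2% and 55.7% of all regions. The mean was 56.0% ± 20.5 (SD, n = 3) with DMSO and 67.3% ± 8.82 (SD, n = 3) with tunicamycin, a difference of 11.3 percentage points. Over all regions it was 8.02, and the DMSO and tunicamycin libraries overlapped in both. In lists of one length the difference was 3.06 points, and libraries called 61.2% to 69.4% of 98 interferon regions and 61.5% to 62.8% of all regions. With full lists the difference over interferon regions was 25.6 points without DMSO replicate 1 and 3.77 without DMSO replicate 3. These libraries called 73.6% and 33.3% of all regions, so leaving them out moves the difference over all regions too. That difference is not given for these settings, and neither value can be set against 8.02.

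**Figure D4:**
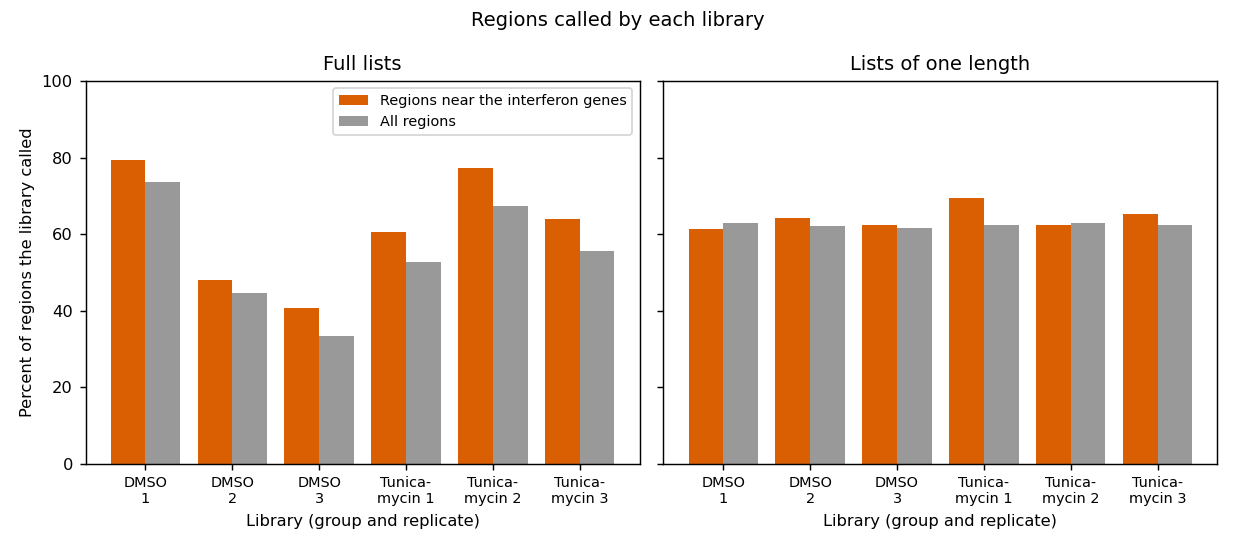
Percent of regions called by each library near the interferon genes (orange) and over all regions (grey), with full lists (left) and lists limited to one length (right). With full lists the orange bars run from 40.7% to 79.3%, and with one length from 61.2% to 69.4%.

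Only 2 of the 150 regions separated the groups fully. A single region (0.683% of all regions were of this kind) was called in 3 of 3 tunicamycin and 0 of 3 DMSO libraries. It lay 10.1 kb outside Irf7 on the upstream side (chr7:141276551-141276797) and covered the start of Cdhr5, a cadherin gene. The authors' fold enrichments were 3.95, 3.30 and 3.15 in tunicamycin replicates 1, 2 and 3, at percentiles 16.1, 4.43 and 2.34, so these were weak peaks. With lists of one length no library called it, and with q at most 1e-05 only 1 tunicamycin library did.

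A single region (0.0976% of all) showed the reverse, near Gbp6, a guanylate-binding GTPase, 8.93 kb outside the gene (chr5:105260843-105261768). Its fold enrichments in DMSO replicates 1, 2 and 3 were 5.48, 3.78 and 4.502, at percentiles 42.6, 10.3 and 31.8. In lists of one length 1 DMSO library called it. Presence in 3 against 3 libraries cannot give an exact permutation p below 0.10, so neither region is called different. Leaving out a library eases the criterion over the whole genome, where 567 regions of the first kind and 81 of the reverse were found with all libraries. Without DMSO replicate 1, 14 interferon regions and 4207 of all regions were called in every tunicamycin and no DMSO library. Without tunicamycin replicate 1 the numbers were 3 and 1803, and without tunicamycin replicate 3 they were 4 and 1231. Regions of the reverse kind numbered 2, and 278 of all regions, without DMSO replicate 2.

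A larger set had calls from the 3 tunicamycin libraries and a single DMSO library. These were 13 regions (8.67%), against 4.76% of all regions. In all 13 the DMSO library was replicate 1, the longest list, a pattern that 4.39% of all regions had. They lay near 10 genes and 12 of the 13 were near effectors: Isg15, Ifit2 and Ifit3, Ifi44, Oas2, Oas3, Gbp2, Ifi35 and Ifitm3. Effectors also held 117 of the 150 regions. The pattern was thus at 12 of 117 regions near effectors and 1 of 33 near sensors and factors, and these counts are not a test. The start of Ifit3 (chr19:34582880-34583605) was among the 13. So was a region 0.525 kb inside Gbp2, which stood at percentile 18.3 in DMSO replicate 1 and at 70.9, 38.9 and 64.4 in the tunicamycin replicates. In lists of one length none of the 13 was called in all 3 tunicamycin libraries and 2 had no call at all. Most of the rest kept calls in 1 or 2 tunicamycin libraries and 0 DMSO libraries, the Gbp2 region in 2. Regions inside Ifi44 and 11.4 kb from Ifitm3 kept calls in both groups, and another, over the start of Ifi44l, kept only its DMSO call. No matching share over all regions is given. The part of list length in this pattern was not tested. In the other direction, 4 regions were called in 3 DMSO and fewer than 3 tunicamycin libraries, against 1.16% of all regions. They were the Gbp6 region, the start of Gbp2, a region inside Parp14 and a region 19.3 kb outside Irf9.

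Among regions called in all 6 libraries, ranks could be set side by side, because each library ranks the same 20810 regions. The percentile was therefore computed again among these alone, and the groups were compared with limma, adjusted by the Benjamini-Hochberg method over all of them. None of the 48 interferon regions passed an adjusted p of 0.05 in limma. Nor did any region of the whole set, in either direction (0.0% higher and 0.0% lower), and 862 (4.14%) had an unadjusted p under 0.05, 6 of them among the 48. Percentiles of the groups did not overlap in 3 regions that stood higher after tunicamycin (4.66% of all) and 2 that stood lower (4.55%). The median difference, tunicamycin minus DMSO, was −1.85 percentile points, and −0.30 over all regions. It was 0.287 without DMSO replicate 3 and −6.09 without DMSO replicate 1.

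The largest difference was a lower rank near Irf9, over the start of Emc9 (chr14:55584894-55585775), which encodes a subunit of the ER membrane protein complex, 18.2 kb upstream of the Irf9 start. Its percentiles were 86.7, 76.8 and 91.9 with DMSO and 58.5, 46.7 and 57.7 with tunicamycin. The groups did not overlap, and the difference was −30.8 points (SE 8.60, limma unadjusted p = 0.0041, adjusted p = 0.997). The start of Irf9 itself differed by 0.0993 points (SE 7.38, limma adjusted p = 1.0).

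In the Ifit cluster on chromosome 19 mean ranks were higher after tunicamycin at some regions and lower at others, with none past the threshold. Beyond the end of Ifit1 (6.43 kb, chr19:34656438-34656857), percentiles were 13.7, 5.45 and 19.3 with DMSO and 25.7, 35.6 and 60.4 with tunicamycin, a difference of 27.7 points (SE 10.3, limma adjusted p = 0.997). At the start of Ifit3b, a close relative of Ifit3, they were 12.9, 1.53 and 22.1 with DMSO and 24.9, 31.2 and 32.8 with tunicamycin (17.4 points, SE 7.53, limma adjusted p = 0.997). In both regions every tunicamycin library stood above every DMSO library. The first difference was 18.1 points without tunicamycin replicate 3 and 13.9 with −log10 p ranked, and the second 29.3 without DMSO replicate 3 and 5.67 with −log10 p ranked.

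A region inside Ifit2 (chr19:34569802-34570458) went the other way, with 58.7, 34.3 and 59.4 under DMSO and 21.4, 35.6 and 7.45 under tunicamycin (−29.3 points, SE 12.2, limma adjusted p = 0.997). Here the groups overlapped. At the start of Ifit2 the tunicamycin libraries were all lower, by a mean of −9.10 points (SE 5.12, limma adjusted p = 0.997). For Ifit1 the start differed by −6.52 points (SE 13.9), with overlap.

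Elsewhere the third region without overlap and a higher rank lay 9.84 kb from Ifitm3, over a start annotated to Gm33504 (chr7:140998936-140999752). Its percentiles were 24.7, 25.5 and 4.10 with DMSO and 28.2, 56.0 and 53.2 with tunicamycin (27.7 points, SE 11.4, limma adjusted p = 0.997). The starts of Gbp3 and Bst2 followed, at 15.2 points (SE 11.6) and 10.95 points (SE 10.8), both with overlapping libraries. For Gbp3 the percentiles were 42.7, 62.4 and 42.2 with DMSO and 57.9, 68.8 and 66.3 with tunicamycin, and the difference was 7.65 points with −log10 p ranked. For Bst2 they were 61.6, 48.4 and 51.2 with DMSO and 70.6, 62.2 and 61.0 with tunicamycin.

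Further regions stood lower on average. Near Usp18, the protease that removes ISG15 and restrains receptor signalling, a region 18.7 kb outside the gene differed by −17.4 points (SE 7.16). Another, over the lower-coordinate edge of the gene span and lying mostly outside it, differed by −16.5 (SE 10.4). Usp18 had no start window, so whether this edge is its start was not examined. The percentiles of the outer region were 24.1, 17.7 and 36.6 with DMSO and 18.5, 4.35 and 3.19 with tunicamycin. Those of the region over the span edge were 70.6, 81.4 and 84.0 with DMSO and 82.9, 45.7 and 58.1 with tunicamycin. The region 5.77 kb upstream of Irf1 differed by −16.3 points (SE 12.6), with 45.4, 71.4 and 84.7 under DMSO and 57.5, 50.6 and 44.5 under tunicamycin. Without 1 library the value at the Usp18 span edge was between −8.15 (tunicamycin replicate 2) and −26.4 (tunicamycin replicate 1). The value at Irf1 was then between −5.37 (DMSO replicate 3) and −27.0 (DMSO replicate 1). With −log10 p ranked the Irf1 value was −5.32. All 3 had overlapping libraries and an adjusted p of 0.997 in limma.

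**Figure D5:**
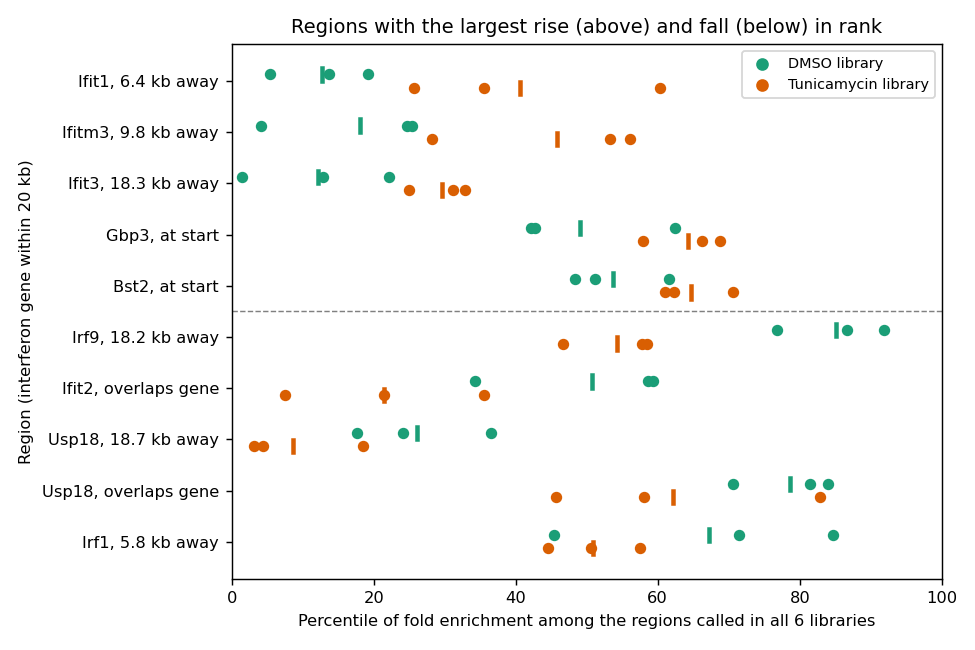
Percentile of fold enrichment among the regions called in all 6 libraries (horizontal axis) for the 5 interferon regions of largest positive difference (above the dashed line) and the 5 of largest negative difference (below); points are libraries and bars are group means. None of the 10 passed the limma threshold, and the groups are apart in 4 of them, near Ifit1, Ifitm3, Ifit3 and Irf9.

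By class, 14 of 16 regions of sensors and factors and 16 of 32 regions of effectors had a lower mean percentile after tunicamycin, as 51.6% of all such regions did. The median difference was −2.61 points for sensors and factors and −0.0152 for effectors. With a library left out the median of sensors and factors ran from −9.06 (without DMSO replicate 1) to −1.33 (without DMSO replicate 3). The count of 14 was 10 of 17 without DMSO replicate 3, 11 of 16 without tunicamycin replicate 3 and 10 of 16 when −log10 p was ranked. Regions at 1 gene share their locus and are not replicates, so no test is attached to these counts.

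The wider interferon pathway was described with 54 further genes, such as the receptor genes Ifnar1 and Ifngr1, the kinases Jak1 and Tyk2, the adaptor gene Mavs and the immunoproteasome genes Psmb8 and Psmb9. Of these, 48 had a region called in all 6 libraries (no share over all genes is given). Their 348 regions not already near a listed gene were called in all 6 in 130 cases (37.4%, exact interval 32.3 to 42.7), against 25.1% of all regions. None differed in rank by limma after adjustment, 8 of the 130 having an unadjusted p under 0.05, against 4.14% of all regions ranked. The groups did not overlap in 6 of the 130 that were higher after tunicamycin and 6 that were lower, against 4.66% and 4.55%. By its calls 1 region of the 348 separated the groups, against 0.683% of all regions. That region lay near Nlrc5, an activator of MHC class I genes (chr8:94458558-94459006), with fold enrichments of 3.85, 4.67 and 5.90 in tunicamycin replicates 1, 2 and 3 and no call in the DMSO libraries. No other region of the 348 was called in all libraries of a group and in none of the other.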

How the data were processed

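Peaks had been called per library and not on pooled samples, as there is 1 list for each. The build was mm10 and the tools MACS2, featureCounts, Picard, Bowtie2 2.2.9 and Trim Galore 0.4.4, per the submitters' processing notes, which give no role or setting. How reads were filtered or shifted, and the threshold for calling, are unstated. As the authors deposited them, the lists give for every peak a −log10 p, a −log10 q, a fold enrichment (ratio) and a display score (not used). These p-value and q-value columns, as deposited, served to filter or rank peaks within a list.

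Peaks on chromosomes 1 to 19, X and Y (109 to 138 others per list left out) were joined into regions wherever they shared 1 bp or more. Each region took its highest peak per library. Gene spans and start windows came from RefSeq tables for GRCm38.p6, in which all 29 genes were matched by symbol. Ranks were tested with limma 3.58.1 (R 4.3.3, variance trend). The same fit was also run on simulated data with 1 noise level for all regions, and its outcome is not given here. Other steps used Python 3.11.15, pandas 2.3.3 and SciPy 1.17.1. Calls were described by counts with exact (Clopper-Pearson) 95% intervals. Same-numbered libraries did not deviate together, so they were not paired. The genes and lists were chosen with earlier results of these data known. Named regions were those at gene starts, those separating the groups and the 5 largest rank differences in each direction, with some others near the genes. Alternatives were q at most 1e-05, lists of one length (28501 peaks), windows of 250 bp to each side of summits, distances of 5 and 50 kb, −log10 p or normal scores for ranks, a replicate block and each library left out.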

Additional observations from a re-analysis of the deposited data

How the results depend on the processing

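Regions called in 3 of 3 tunicamycin and 0 of 3 DMSO libraries numbered 1 (567 of all regions), and 2 with q at most 1e-05 (471 of all), 0 with lists of one length (355 of all), 0 within 5 kb and 3 within 50 kb. Leaving out a library gave 1 to 14 (662 to 4207 of all), both highest without DMSO replicate 1. The reverse kind numbered 1, and 0 with lists of one length and within 5 kb, and 1 to 2 with a library left out. The percent called in all libraries ran from 33.1 to 41.1 with a library left out, the highest without DMSO replicate 3, and the class difference from 13.5 to 26.2 points. The median rank difference ran from −6.09 to 0.287, turning positive without DMSO replicate 3. The cause was not tested. The other 71 values of summary results and all 113 of single regions kept their direction and side of the threshold, though sizes moved as given above. With the replicate block, limma called 0 of the 48 regions and the median rank difference was −1.85, as without it. Deviations of same-numbered libraries correlated at −0.0962, −0.0213 and 0.0245 over regions. Peak lists give no depth, so weak accessibility below the calling threshold was not detectable.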

Other observations

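Over all protein-coding genes, start windows with an ISRE match were not more often called in HSCs than others. Of 713 such windows 36.5% were called in all 6 libraries, against 43.9% of 20550 windows without a match, and 50.4% against 42.6% had no call in any library. For the GAS pattern 36.7% of 1636 windows with a match and 44.3% of 19627 without were called in all 6. Windows of 1 gene can overlap, so these shares are given without a test.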
